A study of Mus musculus with 16 samples.

Results

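The livers compared here came from conventional (Conv) mice on a normal chow (NC) that had been gavaged with caecal microbiota from obese donors, Conv + OM(HFD), or from lean donors, Conv + LM. The recipients are called OM and LM mice below, after the obese or lean microbiota they were given, and not after their own weight. Both groups held 5 mice, so 10 of the 16 mice arrayed entered the direct comparison, and they were chosen by their label alone. All mice were C57BL/6 males that carried their own gut flora and had never received antibiotics. They began NC at 6 weeks of age, stayed on it for 4 weeks and were 10 weeks old. The obese inoculum was the pooled caecal content of donors on a high-fat diet (HFD), the lean inoculum that of donors on NC, and both were given in reduced PBS. The 6 remaining mice, Conv + PBS, received that vehicle according to the methods, although their labels describe them as not transplanted. The inocula differed in bacterial amount as well as in composition, and both were added to a gut flora already in place, so donor diet, bacterial load and species cannot be told apart in these arrays. Per the methods the mice were group-housed, at a cage size that could hold a whole group, under an inverted light cycle, and were fasted before sacrifice. Which mice shared a cage was not given in the sources used here, so cage and inoculum cannot be told apart.

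Blood from the gut drains into the liver through the portal vein and carries bacterial products, short-chain fatty acids and bile acids with it. Hepatocytes take up these metabolites and set fatty acid synthesis, glucose output, bile acid synthesis and acute phase protein secretion accordingly, whereas Kupffer cells, the resident macrophages, and sinusoidal endothelial cells meet the bacterial products first. De novo lipogenesis is the pathway that builds fatty acids from acetyl-CoA, and it is driven by insulin and sugar through the transcription factors SREBP-1c and ChREBP.

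Each mouse gave 1 one-colour array. Levels are log2 intensities relative to the 75th percentile of the same array, so that 0 is that percentile, and differences are Conv + OM(HFD) minus Conv + LM on the log2 scale. Since each probe binds with its own strength, a level can be set against that of the same gene in another mouse but not against that of another gene. The 75th percentile of the intensity ranged from 238 to 298 in Conv + OM(HFD) and from 239 to 319 in Conv + LM, and 53.7 to 57.3% and 52.0 to 57.5% of the spots were well above background. The tissue label held, since all 14 hepatocyte-defining markers were detected, and their mean level lay between 8.34 and 8.67 in the 10 mice.

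A few mice stood apart from their groups. Conv + OM(HFD) mouse 25 had the highest mean level of neutrophil, acute phase and Kupffer cell genes in its group, and Conv + LM mouse 15 the highest mean of adipose tissue markers. The genes of the circadian clock spread widely inside every group. The time of sacrifice was not given per mouse. The neutrophil, acute phase, Kupffer cell, cytokine and type I interferon lists are given with and without mouse 25, and the adipose markers with and without mouse 15.

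No gene of the 20404 tested differed between the OM and the LM livers after correction for multiple testing. The smallest Benjamini-Hochberg adjusted p of limma was 0.9995. At an unadjusted p under 0.05, 553 genes passed (2.71%), of which 318 were higher (1.56%) and 235 were lower (1.15%) in Conv + OM(HFD). If no gene differed, 1020 genes would be called at that threshold on average, and at p under 0.01 the count was 66 where 204 would be called. The exact permutation test of the 5 against 5 mice called 634 genes (3.11%), with 352 higher (1.73%) and 282 lower (1.38%), and over all genes the mean was higher in 52.6% and lower in 47.4%. Among the genes called by limma the median size of the difference was 0.40, and 48 genes differed by more than 1. Named genes below are therefore a description of where the 2 groups lay farthest apart, and none is held at a controlled error rate.

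Calls against the vehicle mice were of the same order, with 668 genes (3.27%) for Conv + OM(HFD) and 806 genes (3.95%) for Conv + LM at an unadjusted limma p under 0.05. Arrays of different groups were as alike as arrays of one group. Pearson's r over genes ran from 0.982 to 0.992 between the transplanted groups, from 0.980 to 0.989 within Conv + OM(HFD) and from 0.984 to 0.991 within Conv + LM. The balance of higher and lower calls moved with the scaling, from 57.5% higher under the 75th percentile to 63.8% with normexp background correction, 44.0% with quantile normalization, 48.1% in the authors' own log2 values and 20.3% when arrays were centred on their median, which moved the median difference of all genes from 0.01 to −0.06.

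**Figure D1:**
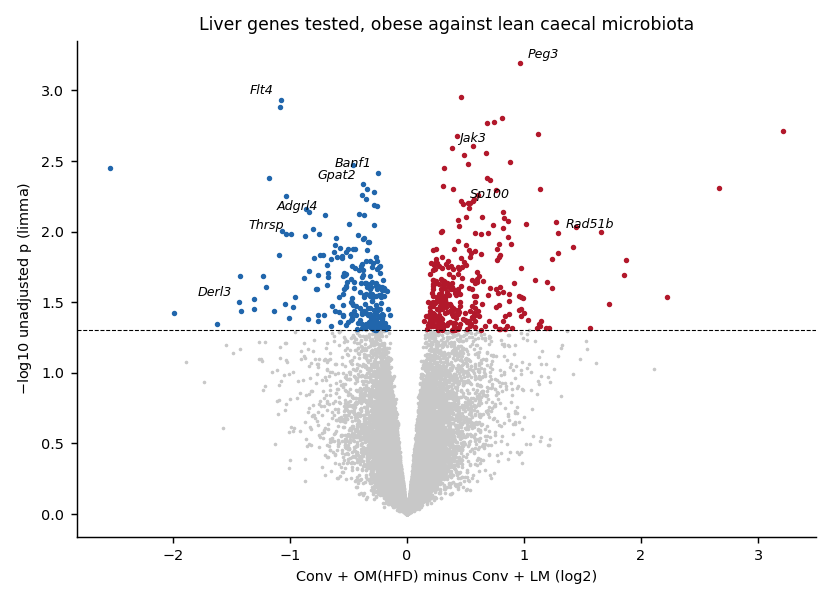
Difference between Conv + OM(HFD) and Conv + LM livers (log2, x axis) against the unadjusted limma p (−log10, y axis) for the 20404 genes tested, 1 point per gene. The smallest p is 0.000641, and no point passes the Benjamini-Hochberg correction.

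Peg3, a zinc-finger gene expressed from the paternal allele alone, had the smallest p of all genes. Its level was −2.24, −1.90, −1.66, −2.15 and −2.18 in the 5 Conv + OM(HFD) mice and −3.51, −2.48, −3.10, −2.85 and −3.04 in the 5 Conv + LM mice. The groups did not overlap, and the lowest OM mouse lay above the highest LM mouse. The difference was 0.97 ± 0.23 (SE), or 1.96-fold, with an unadjusted limma p of 0.000641 and an exact permutation p of 0.00794, the smallest that 5 against 5 mice can give. It was 0.97 within both slides, between 0.84 and 1.097 on leaving out each mouse in turn, and its probe lies on chr7:6657078-6657137 of mm9, minus strand. Relative to Conv + PBS, Peg3 stood at 0.72 in Conv + OM(HFD) and at −0.25 in Conv + LM.

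Groups that did not overlap were found for 93 of the 20358 genes measured in all 10 mice (0.457%), 47 of them higher and 46 lower. Jak3, the kinase that signals from the common gamma chain of cytokine receptors in immune cells, ran from −2.35 to −1.84 in Conv + OM(HFD) and from −2.72 to −2.48 in Conv + LM, a difference of 0.39 ± 0.11 (limma p = 0.00254, exact permutation p = 0.00794). One of its 3 probes pointed the other way. Sp100, a protein of nuclear bodies, was −0.71, −1.18, −1.06, −0.99 and −1.09 in the OM and −1.18, −1.80, −1.31, −1.72 and −1.41 in the LM mice. The highest LM mouse came within rounding of the lowest OM one, and the difference was 0.48 ± 0.15 (limma p = 0.00636, exact permutation p = 0.00794).

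Nrm, an inner nuclear membrane protein, was higher by 0.44 ± 0.15 (limma p = 0.00912, exact permutation p = 0.00794), with 1 LM mouse at −1.82 and the other LM mice between −1.12 and −1.01. Banf1, which bridges DNA to the nuclear lamina, was 1.55, 1.65, 1.67, 1.68 and 1.45 in Conv + OM(HFD) and 1.81, 1.91, 1.91, 1.77 and 1.83 in Conv + LM. Every LM mouse lay above every OM mouse, at a difference of −0.25 ± 0.07 (limma p = 0.00381, exact permutation p = 0.00794) and a standard deviation within groups of 0.10 and 0.06. Rbbp5, a subunit of histone H3 lysine methyltransferase complexes, was lower by the same measure, at −0.28 ± 0.09 (limma p = 0.00642, exact permutation p = 0.00794).

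**Figure D2:**
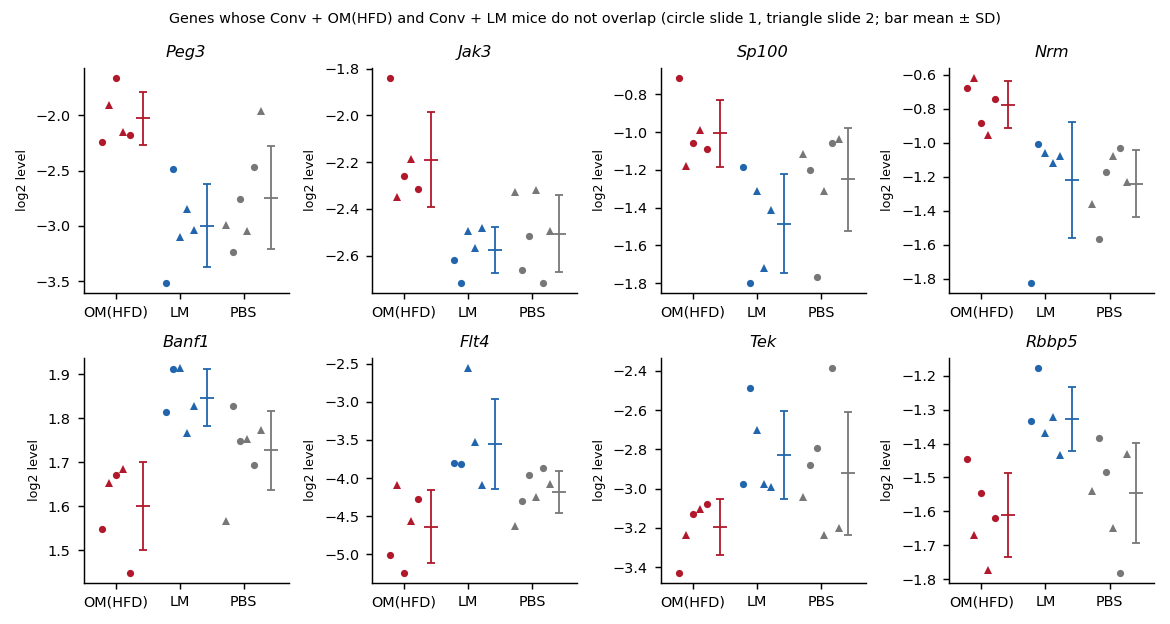
Levels (log2 relative to the 75th percentile of the array, y axes) of 8 genes in the 3 groups, 1 point per mouse, with circles for slide 1, triangles for slide 2 and bars for the mean ± SD. The Conv + OM(HFD) and Conv + LM points do not overlap in any of these panels, which were chosen for that, though those of Sp100 and Flt4 come within rounding of each other.

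The remaining higher genes with the smallest p were mostly shifts of 0.3 to 0.6 with some overlap. Ggh, which trims folate polyglutamates, was higher by 0.31 ± 0.09 (limma p = 0.00471, exact permutation p = 0.0238), and Mfsd6, a membrane protein of the major facilitator family, by 0.30 ± 0.10 without overlap (limma p = 0.00991, exact permutation p = 0.00794). Fam124b, Qsox2 (a sulfhydryl oxidase), Rnaseh2b (a subunit of RNase H2) and Abca9 (a lipid transporter of the ABC family) differed by 0.39, 0.46, 0.29 and 0.63, and 1 probe of Qsox2 and 1 of Rnaseh2b pointed the other way. Qsox2 was 0.56 in OM mouse 26 and −0.46 to −0.08 in the other OM mice, and its difference was 0.30 without that mouse. Chit1, the chitinase of macrophages, differed by 0.50 ± 0.16, and its highest value, −1.93, was that of mouse 25, without which the difference was 0.34. Rad51b, a recombination repair gene, had the largest higher difference among the named genes, 1.29 ± 0.44 (limma p = 0.0102, exact permutation p = 0.0238). Its levels ran from −2.21 to −1.22 in Conv + OM(HFD) and from −3.89 to −2.05 in Conv + LM, with 1 LM mouse inside the OM range. Frat2, a regulator of glycogen synthase kinase 3, was higher by 0.63 ± 0.30 (limma p = 0.0497, exact permutation p = 0.0556), and was no longer called on leaving out any of 7 mice.

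Among the lower genes, Mir143hg, the host transcript of a smooth muscle microRNA cluster, differed by −0.46 ± 0.13 (limma p = 0.00338, exact permutation p = 0.0238), Coq5, of ubiquinone synthesis, by −0.34 ± 0.10, and Ift172, of intraflagellar transport, by −0.28 ± 0.09, the last with another probe of opposite sign. BC021767 and Wdr18, a ribosome assembly factor, were lower without overlap, at −0.39 ± 0.12 and −0.35 ± 0.11, although 1 of the 3 probes of Wdr18 pointed the other way. Mbtps1, the protease that cleaves SREBPs in the Golgi, was −0.25 ± 0.08 (limma p = 0.00658, exact permutation p = 0.0159), and 1 of its 4 probes pointed the other way. Glra1 and Nat9 differed by −0.41 and −0.37. Adgrl4, an endothelial adhesion receptor, differed by −0.70 ± 0.23 (limma p = 0.00763, exact permutation p = 0.0476). Among called genes well above background on all 10 arrays, the largest lower differences belonged to Derl3, of endoplasmic reticulum protein degradation, at −1.44 ± 0.61 (limma p = 0.0313, exact permutation p = 0.0635), to Thrsp, and to BC049987 at −0.76 ± 0.35. Derl3 ranged from −0.62 to 1.30 in Conv + OM(HFD) and from 0.00 to 3.37 in Conv + LM, and its p was over 0.05 without mouse 25, 13, 15 or 17.

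Lipogenic genes were lower on average in the OM livers than in the LM livers, but only 3 of the 33 tested passed an unadjusted p under 0.05 by limma, where 2.71% of all genes did. The study drew its lipogenic network from these same arrays by comparing Conv + OM(HFD) with Conv + PBS, so the direction of its members here is not independent evidence. Each of its 7 genes was lower on average in the OM group by its brightest probe. The median difference was −0.27 beside 0.01 over all genes, and 1 of the 7 was called lower where 1.15% of all genes were. Without LM mouse 13 the median was −0.17 with 6 of 7 lower, and without OM mouse 28 it was −0.23 with 6 of 7 lower. With the slide as a block 4 of the 7 were called lower (Gpat2, Fasn, Echdc1 and Acss2), where 1.64% of all genes were, and the median was −0.33. The mean level of the network ranged from 3.38 to 3.77 in the OM, 3.62 to 4.13 in the LM and 3.59 to 4.32 in the vehicle mice, so the transplanted groups overlapped. Of 26 other lipogenic genes 19 had a lower mean, the median difference was −0.14, and Thrsp and Pgd were called.

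Gpat2, a glycerol-3-phosphate acyltransferase of mitochondria, was the called network gene. It stood at −0.69, −0.41, −0.52, −0.68 and −0.70 in Conv + OM(HFD) and at −0.16, −0.15, −0.25, −0.46 and −0.08 in Conv + LM. Only LM mouse 16 fell inside the OM range, and the difference was −0.38 ± 0.11 (limma p = 0.00463, exact permutation p = 0.0159), −0.48 and −0.28 within the slides. Thrsp, a lipogenic nuclear protein induced by thyroid hormone and carbohydrate, was 5.97, 6.17, 5.30, 4.96 and 5.49 in the OM and 6.98, 7.18, 6.79, 6.02 and 5.88 in the LM mice. The groups overlapped through LM mice 16 and 17, and the difference was −0.99 ± 0.34, or 1.99-fold lower (limma p = 0.0105, exact permutation p = 0.0397). Within slide 1 it was −1.49 and within slide 2 −0.67. Relative to Conv + PBS, Thrsp was −0.89 in Conv + OM(HFD) and 0.10 in Conv + LM. Pgd, an enzyme of the pentose phosphate pathway that supplies NADPH, differed by −0.36 ± 0.15 (limma p = 0.0324, exact permutation p = 0.0635), which was −0.71 on slide 1 and −0.05 on slide 2, and it was no longer called without mouse 28, 30, 13 or 14.

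Fatty acid synthase itself did not reach the threshold. Fasn levels were 6.05, 5.78, 5.18, 4.91 and 5.41 in Conv + OM(HFD) and 6.62, 6.79, 6.01, 5.58 and 5.42 in Conv + LM. These overlap, and the difference of −0.61 had a 95% confidence interval from −1.36 to 0.14 (limma p = 0.101, exact permutation p = 0.119). With the slide as a block the difference of Fasn was −0.74, and without Conv + LM mouse 17 it was −0.78, both past an unadjusted limma threshold of 0.05. Echdc1 and Acss2, described next, passed that threshold with the block as well, at −0.33 each. Srebf1, which encodes SREBP-1c, differed by −0.53 ± 0.42 (limma p = 0.224, exact permutation p = 0.262) and by −0.87, past that threshold, without mouse 17. Echdc1, an enzyme that discards ethylmalonyl-CoA, was 0.69 to 0.94 in the OM and 0.94 to 1.20 in the LM mice, its highest OM and lowest LM values equal after rounding though without overlap, but its difference of −0.28 ± 0.15 gave a limma p of 0.0829, in a fit that also draws on the SD of 0.37 in Conv + PBS, beside an exact permutation p of 0.00794. Acss2, Acaca, Acacb and Dgat2 differed by −0.27, −0.22, −0.12 and −0.11 with limma p from 0.148 to 0.611. Both Acaca and Acacb had opposite signs on the slides, at −0.67 and 0.07 and at −0.66 and 0.39. For Acacb 2 of its 3 probes pointed the other way, and for Acss2 1 of its 4.

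**Figure D3:**
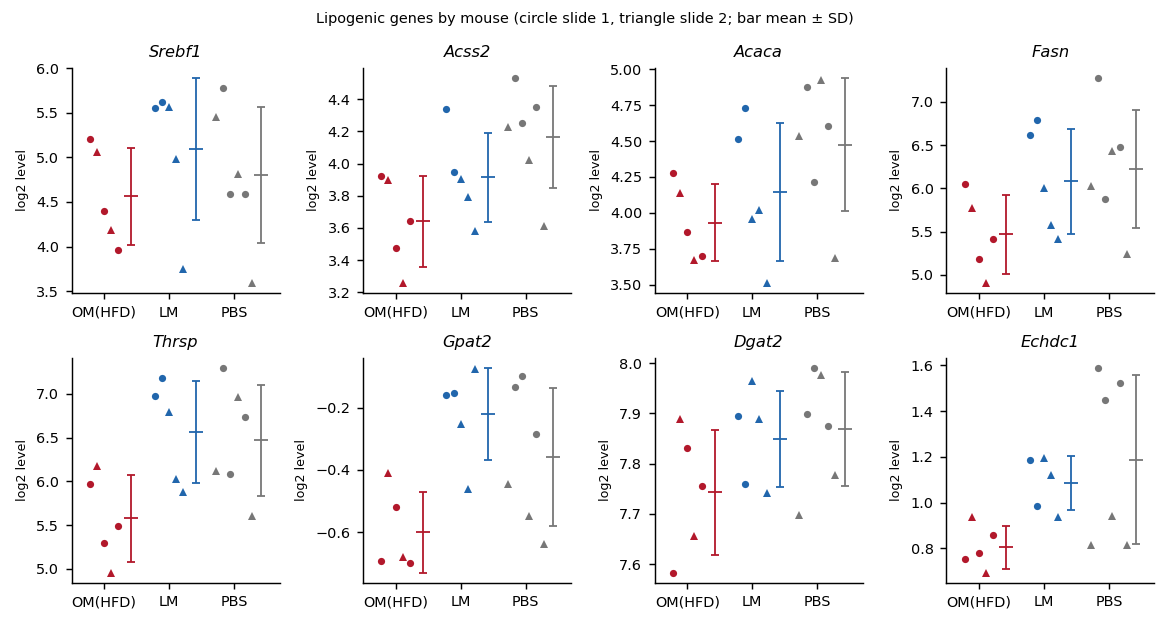
Levels (log2 relative to the 75th percentile of the array, y axes) of 8 lipogenic genes in the 3 groups, 1 point per mouse, with circles for slide 1, triangles for slide 2 and bars for the mean ± SD. Conv + OM(HFD) has the lowest of the 3 means in each panel.

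The promoter windows of the 2 lipogenic genes with the smallest p and of Fasn are shown because the motifs bound by NF-Y, SREBP and ChREBP are known from such promoters. They are the RefSeq windows of GRCm38.p6 from 250 bases before to 50 bases after the start, at chr2:127424949-127425248 on the plus strand for Gpat2, chr7:97417501-97417800 on the minus strand for Thrsp and chr11:120824498-120824797 on the minus strand for Fasn. Capitals mark the CCAAT box, read as CCAAT on the printed strand or as ATTGG where it lies on the other, and matches may overlap.
Gpat2: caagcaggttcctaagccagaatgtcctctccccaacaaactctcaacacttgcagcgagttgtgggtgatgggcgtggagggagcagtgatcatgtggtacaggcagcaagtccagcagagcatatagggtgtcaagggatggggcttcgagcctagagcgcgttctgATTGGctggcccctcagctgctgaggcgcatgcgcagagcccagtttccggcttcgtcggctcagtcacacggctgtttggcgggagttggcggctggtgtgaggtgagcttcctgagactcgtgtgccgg
Thrsp: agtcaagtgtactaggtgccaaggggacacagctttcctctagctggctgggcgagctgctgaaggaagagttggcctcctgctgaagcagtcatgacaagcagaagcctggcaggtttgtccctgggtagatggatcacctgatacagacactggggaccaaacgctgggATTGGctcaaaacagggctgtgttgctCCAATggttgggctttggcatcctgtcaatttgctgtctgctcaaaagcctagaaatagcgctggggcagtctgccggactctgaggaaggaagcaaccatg
Fasn: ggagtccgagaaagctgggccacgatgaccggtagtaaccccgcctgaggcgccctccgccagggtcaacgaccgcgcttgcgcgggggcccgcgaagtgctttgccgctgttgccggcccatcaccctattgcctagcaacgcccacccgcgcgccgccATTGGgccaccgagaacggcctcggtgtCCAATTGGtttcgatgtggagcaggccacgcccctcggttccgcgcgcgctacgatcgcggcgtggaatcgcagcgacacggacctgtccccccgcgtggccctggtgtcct
The windows held 1, 2 and 3 matches. A CCAAT match was present in 6 of the 7 windows found for 6 of the 7 network genes (85.7%) and in 16 of the 29 windows of 22 other lipogenic genes (55.2%), beside 37.4% of all 32851 windows. The E-box CACGTG was in none of the network windows, in 10.3% of the other lipogenic windows and in 7.15% of all windows. The sterol response element TCACNCCAC was in 1 network window, in 3.45% of the other lipogenic windows and in 1.24% of all windows. Both strands were searched, and a match is a description of the letters only.

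Genes of neighbouring metabolic pathways gave few calls. Cholesterol synthesis and uptake genes had a median difference of −0.13, 17 of 24 with a lower mean and no call, and the median moved with single mice. It was −0.27 with 5 called lower without OM mouse 25, where 285 of all 20404 genes were. The median was −0.04 without OM mouse 30, −0.07 without OM mouse 29 and also without LM mouse 13, and −0.20 without OM mouse 26. None was called in these 4. With the mean of the clock activator genes as a covariate, an adjustment chosen after the data were seen, the median was −0.07. There 2 were called lower, as were 273 of all 20404 genes. Targets of PPAR-alpha and the fasting response had a higher mean in 35 of 39 genes with a median of 0.13 and no call. That median was 0.04 with 27 of 39 higher without LM mouse 13, 0.05 with 29 of 39 without OM mouse 30, 0.06 with 28 of 39 without OM mouse 29 and 0.08 with 29 of 39 without LM mouse 14, and it was 0.22 without OM mouse 25. It was 0.19 without LM mouse 17 and 0.17 without LM mouse 15, with 1 called higher in each case. Of all 20404 genes, 413 and 302 were called higher there. With the same covariate the median was 0.05 with 28 of 39 higher. Cyp4a14, an omega-hydroxylase of fatty acids under PPAR-alpha, ran from 0.43 to 3.40 in the OM and from −1.02 to 2.99 in the LM mice (difference 1.02 ± 0.98, limma p = 0.317, exact permutation p = 0.27).

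Gluconeogenic genes showed no call. The median over 7 genes was 0.03 and ran from −0.05 to 0.06 on leaving out each mouse, and Pck1, the gene of cytosolic PEPCK, differed by 0.03, with a 95% confidence interval from −0.23 to 0.28 (limma p = 0.832, exact permutation p = 0.817). Its sign turned with quantile normalization, to −0.05. G6pc, of glucose-6-phosphatase, differed by −0.13, with an interval from −0.51 to 0.25.

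In bile acid metabolism 2 of 25 genes were called, in opposite directions, where 2.71% of all genes were. Hsd3b7, an enzyme of the bile acid ring, was lower (−0.29 ± 0.14, limma p = 0.0463, exact permutation p = 0.0794), and Slc10a1, the bile salt uptake carrier, higher (0.17 ± 0.08, limma p = 0.0492, exact permutation p = 0.0317). Hsd3b7 lost its call on leaving out any of 6 mice and Slc10a1 on leaving out any of 7, and 1 of the 2 probes of Slc10a1 pointed the other way. Cyp7a1, the rate-limiting enzyme of bile acid synthesis, was 4.02, 3.62, 2.55, 1.21 and 1.49 in the OM and 3.29, 3.19, 3.05, 2.51 and 1.53 in the LM mice. The groups covered one another, and the difference of −0.14 had an interval from −1.36 to 1.09.

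Arntl and Dbp spread far more within the groups than between them. Arntl, the core activator of the circadian clock, was −2.83, −1.69, −1.63, −1.12 and 0.18 in Conv + OM(HFD) and −3.28, −1.81, −1.17, −1.45 and −0.24 in Conv + LM, and Dbp, an output gene of opposite phase, ran from 3.66 to 6.03 and from 4.01 to 6.02. Within both transplanted groups the mouse lowest in Arntl was the highest in Dbp. The group differences of 0.17 ± 0.62 and −0.21 ± 0.49 were small beside this range, and the mean of the clock activators ran from 0.85 to 2.19 in the OM, 0.80 to 1.87 in the LM and 0.83 to 2.08 in the vehicle mice. Of 13 clock repressors and evening-phase genes 10 were lower, with a median of −0.11, and 2 were called lower, where 1.15% of all genes were. None was called without LM mouse 14, 4 were without LM mouse 17, and 1 was without any other mouse. Over all 20404 genes, 186 to 324 were called lower on leaving out each mouse, the most without LM mouse 17. The called genes were Per2 and Cry2, repressors of the clock, at −0.35 ± 0.14 (limma p = 0.0232, exact permutation p = 0.0635) and −0.18 ± 0.08 (limma p = 0.0477, exact permutation p = 0.0317). The direction of Cry2 was not shared by 2 of its 3 probes, it turned to 0.09 with the mean of all probes, and Cry2 lost its call on leaving out any of 7 mice. Per2 lost its call without mouse 28, 13 or 14. Per2 was between 2.06 and 2.31 in all OM mice, while 3 LM mice were between 2.61 and 2.87 and the other LM mice at 2.29 and 2.24. With the clock activators as a covariate 588 genes were called (2.88%), 461 of them shared with the fit without it, and the part of the clock in single differences was not tested further.

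Neutrophil, acute phase and Kupffer cell genes had higher means in the OM livers, and the differences were smaller without mouse 25. In bulk liver, a change in the number of cells of a type and a change in RNA per cell cannot be told apart. This holds for the cell type markers here and below. All 12 neutrophil markers that passed the filter, of 18 listed, had a higher mean with a median difference of 0.81 and no call. Their mean level was 1.85 in mouse 25, between −1.35 and −0.42 in the other OM mice and between −1.25 and −0.74 in the LM mice, and without mouse 25 the median was 0.13 with 10 of 12 higher. Without OM mouse 26, the lowest of its group, 2 were called, where 700 of all 20404 genes were. S100a9, a calprotectin subunit of neutrophils, showed the same, at 3.88 in mouse 25 and from −2.46 to −0.78 in the other OM mice, and its difference of 1.20 was 0.15 without mouse 25. Vehicle mouse 1 also had a high neutrophil mean, 1.29.

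Acute phase genes had a median difference of 0.21, with 23 of 24 higher and none called. Saa1, serum amyloid A of the hepatocyte, was 9.04 in mouse 25 and 3.81, 5.32, 4.97 and 4.59 in the other OM mice, beside 4.78, 5.21, 4.49, 4.76 and 5.32 in the LM mice. The difference of Saa1 was 0.63, and −0.24 without mouse 25. Without mouse 25 the acute phase median was 0.09 with 17 of 24 higher. Without OM mouse 26 it was 0.30 with 6 called higher, where 381 of all 20404 genes were. Kupffer cell markers gave 0.31 with 14 of 15 higher, and 0.13 with 12 of 15 without mouse 25. Their mean level was 0.91 in the OM, 0.60 in the LM and 1.01 in the vehicle mice. Vehicle mouse 1, at 2.43, lay above OM mouse 25, at 1.54. Cytokine, chemokine and NF-kB genes had a median of 0.09, which was −0.01 without mouse 25 and 0.15 without OM mouse 28, and 1 of 30 was called where 2.71% of all genes were. It was Ccl9, a macrophage chemokine, at −0.43 ± 0.19 (limma p = 0.0389, exact permutation p = 0.103), a call lost on leaving out any of 6 mice. Type I interferon genes had a median of −0.01, −0.18 with 29 of 35 lower without OM mouse 25 and 0.08 with 27 of 35 higher without OM mouse 30. No gene of 5 further immune lists was called. MHC class II genes had a median of −0.12, and −0.31 without mouse 25. It was 0.02 with 6 of 9 higher without OM mouse 26, and −0.01 without LM mouse 14 or 17. With all mice and without mouse 25, the median of T and NK cell markers was −0.02 and −0.20. For interferon-gamma inducible GTPases these values were −0.03 and −0.13, for B and plasma cell markers 0.13 and −0.10, and for bacterial sensing genes 0.07 and 0.04. The cause of the profile of mouse 25 was not tested.

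**Figure D4:**
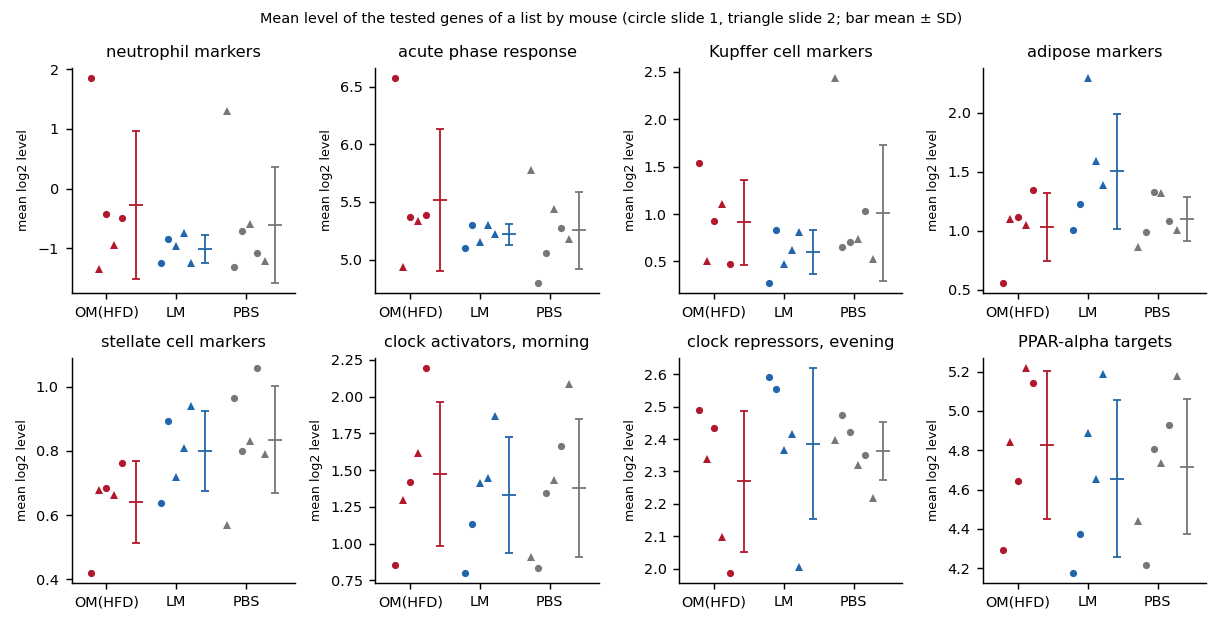
Mean level of the genes of 8 lists (log2 relative to the 75th percentile of the array, y axes) in each mouse, with circles for slide 1, triangles for slide 2 and bars for the group mean ± SD. Conv + OM(HFD) mouse 25 stands apart in the neutrophil and acute phase panels, at 1.85 and 6.57, and Conv + LM mouse 15 in the adipose panel, at 2.29.

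Markers of stellate cells, the vitamin A storing cells of the liver, had a lower mean in 11 of 12 genes tested, with a median difference of −0.25, and 2 were called lower, where 1.15% of all genes were. They were Lrat, which esterifies retinol, at −0.38 ± 0.14 (limma p = 0.0188, exact permutation p = 0.0238), and Colec10, a soluble collectin, at −0.26 ± 0.12 (limma p = 0.0491, exact permutation p = 0.0635). Lrat was no longer called without mouse 25 or 17, nor Colec10 without mouse 25, 30, 13, 15, 16 or 17, so that none was called without LM mouse 17, while 4 were without OM mouse 29 or LM mouse 13. With the clock activators as a covariate 5 of the 12 were called lower, where 273 of all 20404 genes were. With the slide as a block 1 was called lower, where 1.64% of all genes were. Without mouse 25 the median of the list was −0.19 with 9 of 12 lower and 1 called. Of all genes, 186 were called lower without OM mouse 29, 219 without LM mouse 13 and 285 without mouse 25. Collagens and fibrogenic genes, 21 of which were tested, had a median of −0.09 and no call, and the median was 0.04 without LM mouse 17. Relative to the vehicle mice, Lrat stood at −0.63 in Conv + OM(HFD) and at −0.25 in Conv + LM.

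Of 18 sinusoidal endothelial markers 2 were called, both lower, where 1.15% of all genes were called lower. Flt4, the receptor of VEGF-C, was −5.01, −4.09, −5.24, −4.56 and −4.27 in Conv + OM(HFD) and −3.80, −3.82, −2.56, −3.53 and −4.09 in Conv + LM. The highest OM mouse and the lowest LM mouse came within rounding of each other. The difference was −1.08 ± 0.27 (limma p = 0.00116, exact permutation p = 0.00794), but the probe was well above background on only 2 of the 5 OM and all 5 LM arrays. Tek, the angiopoietin receptor, differed by −0.37 ± 0.15 without overlap, as did 0.226% of all genes in the lower direction (limma p = 0.0281, exact permutation p = 0.00794), and was no longer called without mouse 25, 14 or 15. The list as a whole had a median of −0.07 with 14 of 18 lower, which was −0.01 with 10 of 18 lower without OM mouse 25, −0.02 without LM mouse 16, −0.04 without LM mouse 15, −0.05 without OM mouse 29, −0.12 without LM mouse 13 and −0.14 without OM mouse 26.

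Adipose tissue markers had a median of −0.34 over the 9 of 11 that passed the filter, and none was called. Without OM mouse 26, LM mouse 13 or LM mouse 17, 2 were called lower, and without OM mouse 28 or LM mouse 14, 1 was. Of all 20404 genes, 319, 219, 324, 221 and 255 were called lower without these mice in turn. The median was −0.31 without LM mouse 15, and −0.19, −0.20, −0.21 and −0.21 without OM mouse 30 or LM mouse 16, 14 or 13. Conv + LM mouse 15 held the highest values, with Cfd, the adipokine complement factor D, at 2.56 and Plin1, the coat protein of adipocyte lipid droplets, at −0.30. Cfd in the other 9 transplanted mice ran from −5.31 to −0.69 and Plin1 from −6.92 to −3.99. The difference of Cfd was −1.89, and −0.97 without mouse 15, and that of Plin1 was −1.55, and −0.69 without it. Of 9 bile duct markers tested 1, Tspan8, was called lower, where 1.15% of all genes were. Its probe was well above background on only 1 of the OM, 3 of the LM and 2 of the PBS arrays, so no difference is given for it. Of 6 pancreas markers tested 1 was called lower, where 1.15% of all genes were. It was Cel, a lipase, at −0.55 ± 0.24 (limma p = 0.039, exact permutation p = 0.0635), a call lost without mouse 25, 29, 30, 14, 15 or 17 and with the slide as a block. The differences of Cel on the slides were −0.20 and −0.81.

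Over all 52 lists 1098 genes were tested, and 25 of them were called, 2.28% beside 2.71% of all genes. On 33 lists no gene was called, and 33 lists had a median within 0.1 of 0. Calls on the other lists were Sult1b1, a sulfotransferase (−0.48 ± 0.18, limma p = 0.0148, exact permutation p = 0.0317), Shmt1, of one-carbon metabolism (−0.26), and Ces3b, a carboxylesterase (−0.21), in the lower direction. Lipa and Ces3b are the 2 called of the 26 lipid droplet and lipolysis genes tested, in opposite directions. In the higher direction the calls were Ddit3, the stress factor CHOP (0.40), Lipa, lysosomal acid lipase (0.22), Apoa5, a regulator of plasma triglycerides (0.20), Ambp (0.18), C1ra, a complement protease (0.22), and Ctsc, cathepsin C (0.41). Of the cell cycle genes Tk1, thymidine kinase, was lower (−0.39) and Cdk1 higher (0.42), the latter well above background on 5 OM and 2 LM arrays. Of these, Sult1b1, Lipa and Tk1 kept their call on leaving out any 1 mouse. Mt1, a metallothionein, was 9.29 in mouse 25 and 6.35 to 8.55 in the other transplanted mice (difference 0.92 ± 0.48, limma p = 0.0741, exact permutation p = 0.0952). Without mouse 25 the difference of Mt1 was 0.59.

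Housekeeping complexes lay close to 0. Oxidative phosphorylation subunits had a median of 0.01 over 74 genes and no call, and proteasome subunits 0.00 over 31. Ribosomal proteins had a median of 0.05 with 67 of 78 higher, which was 46 of 78 under quantile normalization. Xenobiotic P450s and their receptors had a median of −0.04 over 41 genes, which turned to 0.04 without OM mouse 25, and phase II conjugation enzymes 0.01 over 35.

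**Figure D5:**
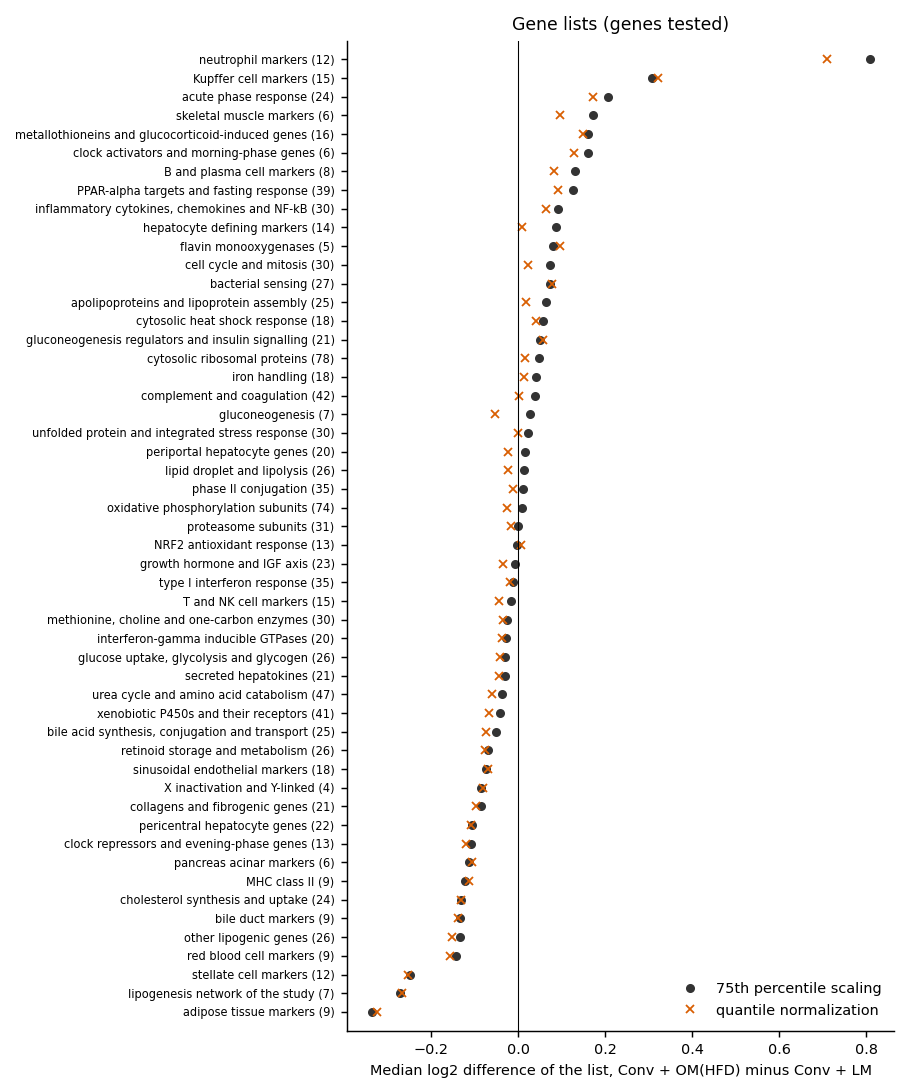
Median difference between Conv + OM(HFD) and Conv + LM (log2, x axis) of the genes tested on each list (y axis). Circles are for scaling to the 75th percentile, crosses for quantile normalization, and the line is at 0. Among the circles, medians over 0.2 in size are those of neutrophil, Kupffer cell, acute phase, adipose, stellate cell and lipogenic network genes, and 33 of the 52 lie within 0.1 of 0.

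The arrays lay on 2 slides, and both slides held all groups. Slide 1 carried 3 OM and 2 LM mice, and slide 2 carried 2 and 3. With the slide as a block 878 genes were called (4.3%), 489 of them shared with the fit without the block, and the smallest adjusted p was 0.969. The block added calls for 3 of the named genes, Fasn, Acss2 and Echdc1, and ended those of 8, Cry2, Hsd3b7, Ces3b, Ctsc, Colec10, Cel, Frat2 and BC049987 (limma p from 0.0504 to 0.0673). Of the 51 named genes called at an unadjusted limma p under 0.05, 30 kept that p on leaving out any 1 of the 10 mice and 21 did not. Detection gave no further gene, since no gene of the 37074 names on the array was well above background on all 5 arrays of one group and on none of the other.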

How the data were processed

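Liver RNA of 16 mice (Conv + OM(HFD), n = 5; Conv + LM, n = 5; Conv + PBS, n = 6) was labelled with Cy3 from 200 ng and hybridised to Agilent mouse arrays. The authors deposited scanner output from Agilent Feature Extraction 10.10.1.1, whose processed signal is a background-corrected intensity, and log2 values that, set against the scanner files, ranked the probes of each array as the median spot intensity does and had column medians of 5.49 to 5.52. These deposited log2 values served as an alternative. Here, log2 of the processed intensity minus its 75th percentile over non-control probes was computed per array, outlier spots were set to missing and the 300 probes with more than 1 spot were averaged. A filter kept the 30664 of 56605 probes that 5 or more of the 16 arrays gave as well above background, and the brightest probe stood for each gene name (20404 genes, 6819 with several probes). Names were matched to RefSeq symbols (14635), synonyms (694) or neither (5075). The number of arrays limits the precision.

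Groups came from the labels. One model of 3 groups was fitted to 16 arrays with limma 3.58.1 in R 4.3.3 (data.table version 1.17.8), p-values were adjusted by Benjamini-Hochberg over all genes, and single genes were also tested by a two-sided exact permutation test of 5 against 5 mice. The script was tested on simulated data. Error is SD between mice or SE of the fit. Mice were group-housed and the cage of each is not given. The p-values set a group difference against the spread between these mice, which may share a cage and so may not be independent. Alternatives were normexp background correction (offset 50), quantile normalization, the median as centre, the authors' values, other probe filters, the mean of all probes, array weights, the slide as a block, 10 mice only, the methods' t-test, every probe on its own, and each mouse left out. Named genes were the 12 higher and 12 lower with the smallest p that have a RefSeq name, are no gene models and are well above background on all 10 arrays, up to 4 called per list, the 3 largest called differences in each direction under the same conditions, and 14 metabolic and clock genes whatever their p. Cyp4a14, S100a9, Saa1, Cfd, Plin1 and Mt1 are outside this rule and were chosen after their values were seen. Comparison and lists were chosen with earlier results of these data known. Plots used Python 3.11.15 (matplotlib 3.10.9).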

Additional observations from a re-analysis of the deposited data

Results flagged for a closer look

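In 126 combinations of a named gene and a group of 5 mice, 5 had a single mouse far from the rest by Dixon's criterion at 95%, where chance alone gives about 1 in 20. Chit1 was highest in Conv + OM(HFD) mouse 25, at −1.93, with −2.61 next to it. Nrm was lowest in Conv + LM mouse 13, at −1.82, with −1.12 next to it. Ift172 was highest in Conv + OM(HFD) mouse 30, at −0.65, with −0.98 next to it. Ctsc was highest in Conv + LM mouse 14, at 2.26, with 2.01 next to it. C1ra was lowest in Conv + OM(HFD) mouse 29, at 5.48, with 5.66 next to it.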

How the results depend on the processing

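No gene passed a Benjamini-Hochberg adjusted p under 0.05 with limma in any alternative, nor with the methods' t-test (616 genes at its unadjusted threshold, 345 higher and 271 lower). No paired analysis was possible because the mouse numbers are not shared between groups. The 553 calls were 878 with the slide as a block (543 higher) and 839 of 30664 when every probe was tested on its own (488 higher). Centring on the median gave 101 higher and 397 lower genes. Leaving out each mouse in turn gave 487 (without Conv + OM(HFD) mouse 29) to 801 calls (without Conv + LM mouse 16), 247 (without Conv + LM mouse 14) to 485 higher (without Conv + LM mouse 16), 186 to 324 lower, and 20 (without Conv + OM(HFD) mouse 30) to 44 called list genes (without Conv + OM(HFD) mouse 26), where 25 were called with all mice. Detection on at least 4 arrays of one group and at most 1 of the other gave 61 gene names, 33 in Conv + OM(HFD) and 28 in Conv + LM, where the stricter rule gave 0.

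Apart from differences within a slide, the sign turned for 7 named genes. With the mean of all probes it did for Ift172 (0.0256), Cry2 (0.0937) and Cyp7a1 (0.126). Pck1 was −0.021 with normexp, −0.0545 with quantile normalization, −0.0442 centred on the median and −0.11 in the authors' values. Leaving out each mouse in turn, Acacb ran from −0.261 to 0.0378, Pck1 from −0.0491 to 0.0867, Cyp7a1 from −0.495 to 0.207, Arntl from −0.249 to 0.527 and Dbp from −0.492 to 0.109. The sign turned without mouse 28 or 13 for Acacb, 28, 13 or 17 for Pck1, 29, 30 or 13 for Cyp7a1, and 30 or 13 for Arntl and Dbp. With the clock activators as a covariate, chosen after the data were seen, Cyp7a1 was 0.143, Arntl −0.153 and Dbp 0.0445. The causes were not tested. Of 51 called named genes 49 kept their direction in every alternative and 15 were called in every one that left out no mouse. Dim probes limit the precision: in the dimmest 4081 genes 146 were called higher and 75 lower, and 70 and 97 under quantile normalization.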
